A study of Mus musculus with 24 samples.

Results

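The mRNA levels of 10 amino acid transporter genes (Slc7a1, Slc7a3, Slc7a6, Slc7a5, Slc1a4, Slc1a5, Slc38a1, Slc38a2, Slc7a11 and Slc3a2) were followed in mouse embryonic fibroblasts (MEFs), among 55487 genes in the deposited count table. They were picked by gene name with earlier results of these data known, among them the fall of Slc7a11 with torin1 and the genotype-dependent torin1 response of Slc7a3. Torin1 values are therefore given as a description, without p-values. All 10 genes were among the 15828 that passed the filter on low counts.

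The series compared wild-type (WT) MEFs with MEFs labelled AMPK KO, which per the study's methods lack both catalytic subunits of AMP-activated protein kinase (AMPK), encoded by Prkaa1 and Prkaa2. Each line received DMSO as vehicle, MK-8722 (labelled MK8722), a direct activator of AMPK, or torin1 (labelled Torin-1), an ATP-competitive inhibitor of MTOR. There were 24 poly(A) RNA libraries, 4 in each of the 6 groups, all with the same batch label. The 4 libraries of a group came from 4 successive passages, 12 to 15 for WT and 16 to 19 for AMPK KO, so genotype and passage cannot be told apart, and each genotype was represented by the cells of a single source. Replicates were thus cultures of the same line at different passages, and p-values measure the spread between those.

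Library totals ran from 26900240 to 34192685 estimated counts and RNA integrity numbers from 9.7 to 10.0. Summed levels of 6 fibroblast markers lay between 11058 and 16944 CPM (counts scaled to library size) in WT and between 4755 and 6826 CPM in AMPK KO, whereas summed markers of leukocytes, endothelium, epithelium, muscle and pluripotent cells did not exceed 6.6 CPM in any library. Prkaa1 stood at 71.1 to 82.6 CPM per library in WT and 68.1 to 90.7 CPM in AMPK KO, and Prkaa2 at 3.01 to 8.51 and 2.41 to 6.28 CPM. These totals are over the whole gene, and since the deleted part is not given in the sources used here they do not check the genotype label. With bulk RNA, fewer cells of a type and less RNA per cell cannot be told apart.

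Cells take up amino acids through families of membrane carriers with different substrates. Slc7a1 and Slc7a3 encode the cationic amino acid transporters CAT1 and CAT3, which import arginine and lysine. Slc7a6 encodes y+LAT2, which exchanges cationic for neutral amino acids. Slc7a5 encodes LAT1, an exchanger that brings in large neutral amino acids such as leucine, Slc1a4 and Slc1a5 encode the neutral exchangers ASCT1 and ASCT2, and Slc38a1 and Slc38a2 encode the sodium-coupled neutral carriers SNAT1 and SNAT2. Slc7a11 encodes xCT, which imports cystine in exchange for glutamate. LAT1, y+LAT2 and xCT are light chains that reach the plasma membrane bound to the heavy chain CD98hc, encoded by Slc3a2. Leucine and arginine activate MTOR complex 1 at the lysosome, and several of these transporter genes are known targets of ATF4, the transcription factor of the amino acid response, while Slc7a11 is also a known target of NRF2.

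RefSeq promoter windows (GRCm38.p6), from 250 bases before to 50 bases after a start site, were found for 6 of the 10 genes, as 8 windows, and searched on both strands for 3 short motifs. The ATF4-type motif TGATGNAA, the core of the C/EBP-ATF response element, occurred in 3.97% of all 32851 windows and in those of 2 members, Slc7a11 and Slc1a4. These 2 stretches are shown because they hold that motif, given in capitals in either orientation, 5′ to 3′ on the strand of the gene.
Slc7a11 (chr3:50443653-50443682, minus strand): ggcTGATGCAAacctggagaatTTGCATCA
Slc1a4 (chr11:20332710-20332739, minus strand): agcctccagcgtgcctcctgcgTTGCATCA
The Slc7a11 window held the motif in both orientations, their first bases 66 and 47 bases before the start site, and that of Slc1a4 held it 4 bases before the start site, running across it. The NRF2-type motif TGACNNNGC, the core of the antioxidant response element, was found in 12.4% of all windows and in those of Slc7a1, Slc7a6 and Slc38a2. The E-box core CACGTG, shared by the lysosomal CLEAR element, was found in 7.15% of all windows and in none of the members'. The matched letters of different motifs did not overlap. Windows for Slc7a3, Slc7a5, Slc1a5 and Slc38a1 were not analysed here. A match is a description of letters, not of binding.

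Per transcript length, in TPM (counts scaled to transcript length and library size), Slc3a2 and Slc7a5 were the most abundant of the 10 in untreated cells. In WT DMSO the mean level was 315 ± 53.1 TPM for Slc3a2 and 294 ± 51.9 TPM for Slc7a5 (SD, n = 4), and the libraries of these 2 genes overlapped. Slc38a2 followed at 124 ± 7.5 TPM, clear of its neighbours on both sides. Slc7a6, Slc1a5, Slc38a1 and Slc7a1 lay between 62.3 and 83.6 TPM on average, each overlapping the next. These are sums over all annotated transcripts, short ones among them. The leading transcript of Slc7a6, ENSMUST00000212802, held 26.3% of its mean TPM and covers a small part of the gene. For Slc1a5, a transcript of 613 bases held 20.5% in WT DMSO. The order of these genes thus depends on how reads were divided among transcripts. Slc1a4 stood at 45.6 ± 2.9 TPM, Slc7a3 at 16.2 ± 8.8 TPM and Slc7a11 at 4.25 ± 1.9 TPM, with no overlap between them. In AMPK KO DMSO, Slc3a2 (422 ± 30.9 TPM) and Slc7a5 (373 ± 20.2 TPM) again led with overlapping libraries, but the 2 lowest genes had changed places, with Slc7a11 at 7.91 ± 1.8 TPM and Slc7a3 at 0.706 ± 0.13 TPM. With torin1 the level of Slc7a11 came to 0.0483 ± 0.021 TPM in WT and 0.185 ± 0.088 TPM in AMPK KO, the lowest of the 10 genes in both genotypes. The 10 genes together took 0.0803% to 0.347% of the counts of a library.

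**Figure D1:**
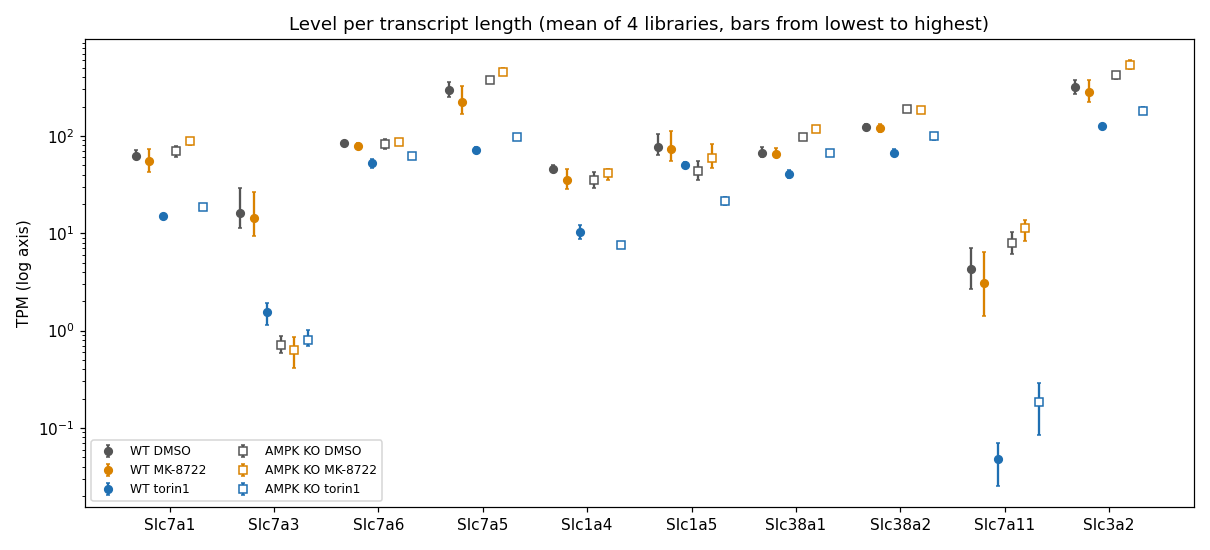
Level per transcript length of the 10 genes in TPM on a log axis, with filled circles for WT, open squares for AMPK KO, the mean of 4 libraries as the symbol and bars from the lowest to the highest library. Slc3a2 and Slc7a5 sit at the top in the 4 groups without torin1, and the torin1 means of Slc7a11 lie at 0.0483 TPM in WT and 0.185 TPM in AMPK KO.

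The WT passage 12 libraries of DMSO and MK-8722, but not that of torin1, were the highest of their group for most of these genes. This bears on every comparison that uses WT, since each of them uses WT DMSO. Shares over all genes tested were not computed, so the counts that follow are a description. The passage 12 library was the highest of its group for 9 of the 10 genes in WT DMSO, for 9 in WT MK-8722 and for 3 in WT torin1. With torin1 it was the lowest for Slc1a4 (20.9 CPM) and Slc3a2 (115 CPM). For Slc7a3 it reached 42.9 CPM in DMSO, where the other 3 libraries lay between 15.8 and 18.7 CPM, and 38.2 CPM with MK-8722, against 13.5 to 16.4 CPM. For Slc7a11 it reached 40.8 CPM in DMSO, against 13.0 to 19.7 CPM, and 28.6 CPM with MK-8722, against 8.21 to 11.4 CPM. The exception in both groups was Slc7a6, at 108 CPM within the 105 to 112 CPM of the other DMSO libraries. Differences between drug and DMSO are therefore also given within passages below. Whether cultures of the same passage number were split from the same flask is not given in the sources used here.

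**Figure D2:**
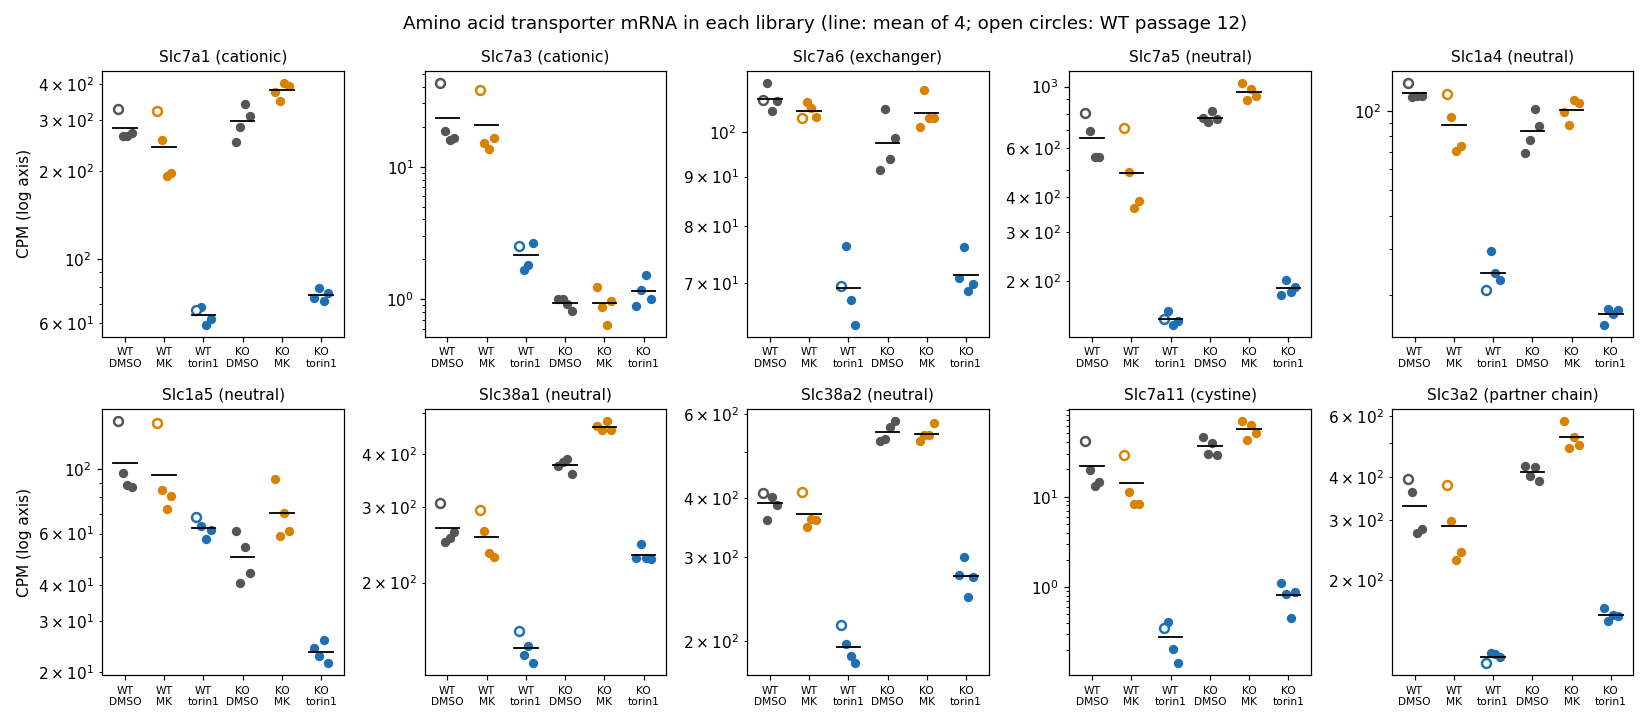
CPM of the 10 genes in every library, each panel with its own log axis, grouped by genotype and treatment (MK, MK-8722), with lines at the mean of 4 libraries and open circles for WT passage 12. Each torin1 group lies below the DMSO group of its genotype in every panel but for Slc7a3 in AMPK KO, and the open circles top the WT DMSO group in 9 of the 10 panels.

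Torin1 against DMSO asks what loss of MTOR activity does to each genotype. All 10 genes were lower with torin1 in WT, and 9 of 10 in AMPK KO, as called by edgeR's quasi-likelihood test (adjusted p below 0.05, fold difference 1.2 or more). Over all genes tested, 21.1% were called lower with torin1 in WT and 17.5% in AMPK KO, and since the genes were chosen with such results in view, nothing is read from the count. The median log2 fold change of the 10 genes was -1.80 in WT and -1.23 in AMPK KO, beside 0.04 and 0.06 over all genes tested. Both torin1 comparisons share no libraries with each other.

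Slc7a11, the cystine transporter gene, had the largest difference of the 10. Its levels in WT DMSO were 13.0, 14.6, 19.7 and 40.8 CPM, and with torin1 0.145, 0.207, 0.352 and 0.413 CPM, which rest on 4 to 13 counts per library. In AMPK KO they were 28.8, 29.8, 39.7 and 46.2 CPM in DMSO, and 0.451, 0.840, 0.885 and 1.11 CPM with torin1, on 15 to 36 counts. The groups were far apart in both genotypes. The log2 fold change was -6.28 (SE 0.65) in WT, or 77.5-fold lower, and -5.46 (SE 0.52) in AMPK KO, or 43.9-fold lower. Its annotated span on chromosome 3 (GRCm38, 49892526 to 50443614) overlaps 5 predicted genes on either strand, and whether counting used strand is not given in the sources used here.

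Of the cationic transporter genes, Slc7a3 differed between genotypes. Slc7a3, on the X chromosome (101079210 to 101086020), was at 15.8, 16.4, 18.7 and 42.9 CPM in WT DMSO and at 1.65, 1.80, 2.53 and 2.65 CPM with torin1 (log2 fold change -3.45, SE 0.37). In AMPK KO it was low under every treatment, at 0.818 to 1.01 CPM in DMSO and 0.891 to 1.53 CPM with torin1, with a log2 fold change of 0.29 and a 95% interval from -0.82 to 1.41. The difference between genotypes in the torin1 response was 3.74 on the log2 scale (SE 0.65), and Slc7a3 was the only member of the 10 called in that comparison, where 7.12% of all genes tested were called. For Slc7a1 the difference between genotypes was 0.16, with a 95% interval from -0.21 to 0.53. It was at 264 to 328 CPM in WT DMSO and 59.3 to 68.2 CPM with torin1 (log2 fold change -2.14, SE 0.13), and at 253 to 343 CPM and 71.7 to 79.5 CPM in AMPK KO (-1.98, SE 0.13).

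The neutral transporter genes split into a strong and a mild response. Slc1a4 fell from 113 to 127 CPM in WT DMSO to 20.9 to 29.4 CPM with torin1, 4.80-fold, and from 68.9 to 101 CPM to 15.5 to 17.7 CPM in AMPK KO, 4.94-fold. Slc7a5 (LAT1) was at 557, 558, 693 and 805 CPM in WT DMSO and at 139, 144, 147 and 157 CPM with torin1, 4.46-fold lower, and its AMPK KO libraries went from 745 to 818 CPM down to 178 to 203 CPM, 4.11-fold lower. The other 3 changed less. Slc38a2 was 2.00-fold lower in WT and 2.01-fold lower in AMPK KO, Slc38a1 1.91-fold and 1.62-fold lower, and Slc1a5 1.67-fold and 2.12-fold lower. Every torin1 library of all 10 genes in WT, and of the 9 called genes in AMPK KO, was below every DMSO library, as was so for 24.7% and 23.7% of all genes tested.

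The heavy chain gene Slc3a2 went from 274 to 394 CPM in WT DMSO to 115 to 122 CPM with torin1 (log2 fold change -1.45, SE 0.13), and from 388 to 430 CPM to 152 to 166 CPM in AMPK KO (-1.38, SE 0.13). Slc7a6, which encodes another of its light chains, had the smallest difference in each genotype among the genes called, with log2 fold changes of -0.65 (SE 0.05) in WT and -0.45 (SE 0.05) in AMPK KO. By class, the log2 fold changes in WT were -2.14 and -3.45 for the cationic genes, -0.74 to -2.26 for the 5 neutral genes and -6.28 for the cystine gene. Within passages, all 10 genes were lower with torin1 in 4 of 4 passages in WT and 9 of 10 in 4 of 4 passages in AMPK KO, Slc7a3 being the exception. The share over all genes tested was not computed within passages, so nothing is read from these counts.

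**Figure D3:**
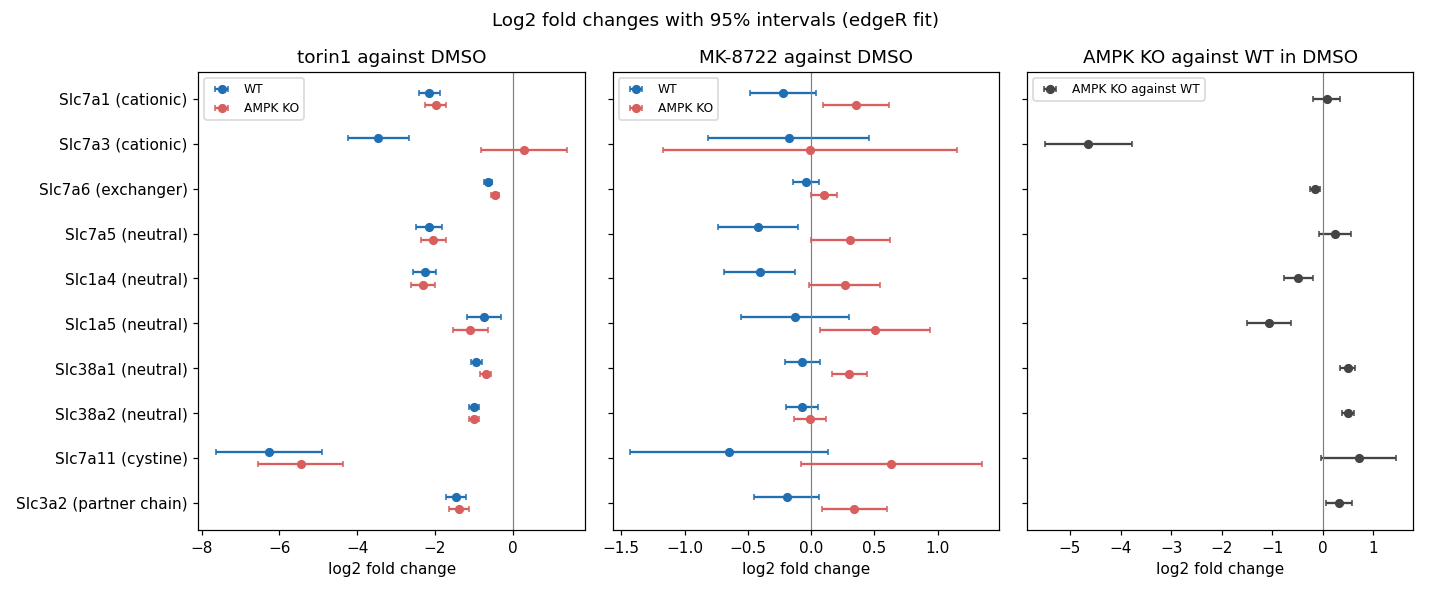
Log2 fold changes of the 10 genes with 95% intervals from the fit, for torin1 and MK-8722 against DMSO in WT (blue) and AMPK KO (red), and for AMPK KO relative to WT without drug (dark grey), with a different scale on each axis. With torin1 Slc7a11 lies at -6.28 and -5.46 and Slc7a3 at -3.45 in WT against 0.29 in AMPK KO, and with MK-8722 the points of WT lie left of 0 and those of AMPK KO right of it for 8 genes.

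MK-8722 against DMSO asks what AMPK activation does, and the AMPK KO cells show what the compound does where AMPK is labelled absent. The differences were small, with medians of opposite sign in the 2 genotypes. In WT 2 of the 10 genes passed the test, both neutral transporters and both lower (5.6% of all genes tested were called lower): Slc7a5 fell 1.34-fold (log2 fold change -0.42, SE 0.15, adjusted p = 0.0431, edgeR) and Slc1a4 1.32-fold (-0.41, SE 0.13, adjusted p = 0.0288, edgeR). In AMPK KO 1 of 10 passed, Slc38a1, which rose 1.23-fold (0.30, SE 0.07, adjusted p = 0.0172, edgeR), where 0.809% of all genes tested were called higher. The median log2 fold change of the 10 was -0.19 in WT and 0.31 in AMPK KO, beside -0.0017 and 0.0021 over all genes tested. The call of Slc7a5 was lost without WT DMSO replicate 2 or 4 or WT MK-8722 replicate 1, 3 or 4 (log2 fold change -0.30 to -0.42), that of Slc1a4 without WT DMSO replicate 4 or WT MK-8722 replicate 3 or 4 (-0.31 to -0.36), and that of Slc38a1 without AMPK KO DMSO replicate 1 (0.28) or AMPK KO MK-8722 replicate 4 (0.28).

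The libraries show how far the groups overlapped. Slc7a5 was at 557, 558, 693 and 805 CPM in WT DMSO and at 365, 387, 492 and 711 CPM with MK-8722, so the passage 12 library with MK-8722 stood above 3 of the 4 DMSO libraries. In AMPK KO it was at 745, 763, 770 and 818 CPM in DMSO and at 897, 925, 982 and 1031 CPM with MK-8722, without overlap. No gene of the 10 was free of overlap in WT, where 25.5% of all genes tested were. In AMPK KO, 4 of the 10 were higher in every MK-8722 library than in every DMSO library (Slc7a1, Slc7a5, Slc38a1 and Slc3a2), where 6.1% of all genes tested were. Slc38a1 was at 359, 374, 383 and 389 CPM in DMSO and 455, 456, 465 and 478 CPM with MK-8722 in that line.

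The difference between genotypes in the MK-8722 response was called for 5 of the 10 genes, all higher in AMPK KO relative to WT, where 5.05% of all genes tested were called higher. These were Slc7a5 (0.73 on the log2 scale, SE 0.21, adjusted p = 0.0226, edgeR), Slc1a4 (0.67, SE 0.19, adjusted p = 0.0187, edgeR), Slc7a1 (0.58, SE 0.18, adjusted p = 0.0291, edgeR), Slc3a2 (0.53, SE 0.17, adjusted p = 0.0407, edgeR) and Slc38a1 (0.37, SE 0.10, adjusted p = 0.00927, edgeR). Slc7a11 had the largest estimate, 1.28, with an SE of 0.50 and an adjusted p of 0.0906 by edgeR. For Slc38a2 the difference was 0.06 with a 95% interval from -0.12 to 0.24, and for Slc7a3 it was 0.17 with an interval from -1.16 to 1.5. The calls of Slc1a4 and Slc38a1 held with each of the 16 libraries left out in turn, whereas that of Slc3a2 was lost in 11 of 16 (0.43 to 0.55), that of Slc7a1 in 6 (0.48 to 0.55) and that of Slc7a5 in 1, without WT DMSO replicate 4 (0.61).

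Set against the DMSO library of the same passage, the differences had the following directions. In WT, 7 of the 10 genes were lower with MK-8722 in 4 of 4 passages, and in AMPK KO 8 of 10 were higher in 4 of 4. The share of all genes tested with a single direction was not computed, so nothing is read from these counts. Slc7a11 was lower in WT by 0.51, 0.78, 0.65 and 0.83 on the log2 scale at passages 12, 13, 14 and 15, and higher in AMPK KO by 0.57, 0.51, 0.65 and 0.82 at passages 16, 17, 18 and 19. Slc1a5 was higher in every AMPK KO passage, by 0.39 to 0.60, and was lower in WT by 0.02 to 0.28. Slc7a5 was lower in WT by 0.18 to 0.61 and higher in AMPK KO by 0.26 to 0.42. The genes without a single direction in WT were Slc7a6, Slc38a1 and Slc38a2, and in AMPK KO Slc7a3 and Slc38a2.

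**Figure D4:**
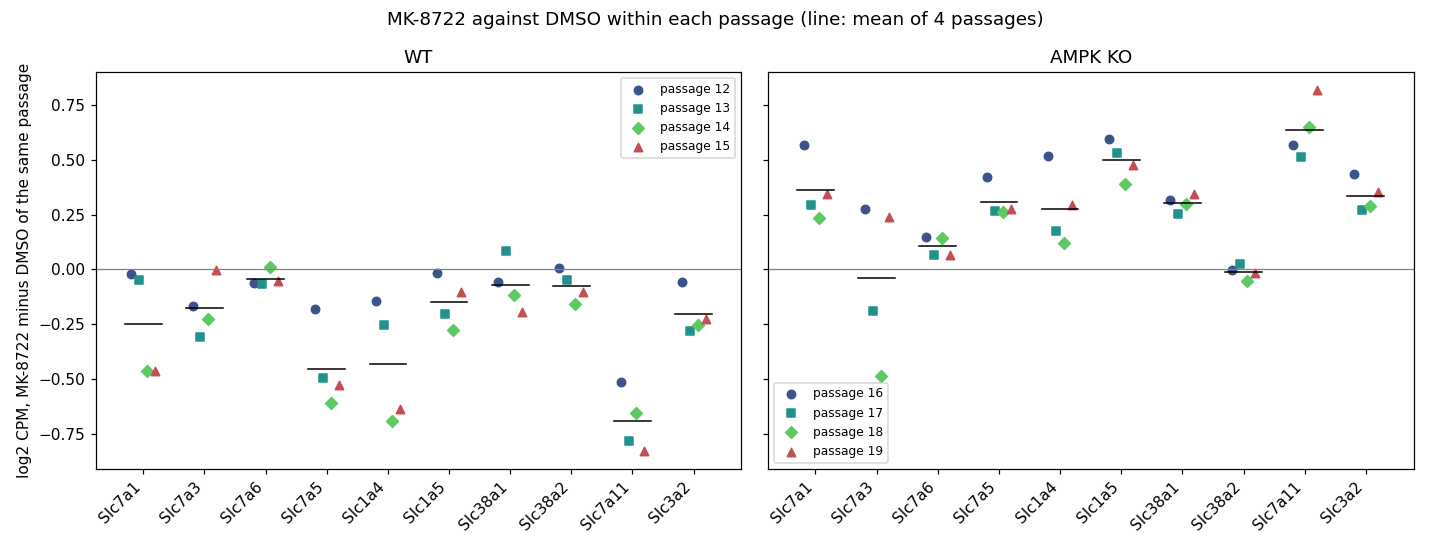
Log2 CPM with MK-8722 minus log2 CPM with DMSO at the same passage for the 10 genes, 4 passages a genotype, with lines at the mean. In WT the 4 points of Slc7a11 lie between -0.83 and -0.51, and in AMPK KO between 0.51 and 0.82.

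With passage as a block within genotype, 3 genes were called lower with MK-8722 in WT, where 7.12% of all genes tested were in the same fit, and 5 were called higher in AMPK KO, where 2.53% were. Slc7a11 was called in both. Its log2 fold change was then -0.67 in WT (adjusted p = 4.07e-06, edgeR) and 0.64 in AMPK KO (adjusted p = 9.91e-06, edgeR), and the difference between genotypes was 1.31 (adjusted p = 5.07e-08, edgeR). That difference was called for 7 of the 10 genes with the block, all higher in AMPK KO (7.51% of all genes tested), the additions being Slc7a11 and Slc1a5 (0.64, adjusted p = 0.00673, edgeR). Without the block the adjusted p for Slc7a11 was 0.217 in WT and 0.379 in AMPK KO, with edgeR. The other genes that then passed in AMPK KO were Slc1a5 (0.50, adjusted p = 0.0101, edgeR), Slc7a1 (0.36, adjusted p = 0.027, edgeR) and Slc3a2 (0.34, adjusted p = 0.0316, edgeR), beside Slc38a1. Without the 3 passage 12 libraries, an alternative chosen after seeing the data, 5 genes were called lower in WT and 6 higher in AMPK KO, beside 6.52% and 1.59% of all genes tested. That fit left out no AMPK KO library, and log2 fold changes in AMPK KO hardly moved (Slc7a5 0.31 and Slc7a11 0.63 in both fits). All groups share the model's estimate of the spread, so the added AMPK KO calls are not a change in AMPK KO levels.

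The DMSO libraries compare the 2 lines without drug. Of the 10 genes, 3 were lower and 3 higher in AMPK KO, where 25.9% of all genes tested were called lower and 30.8% higher, 56.8% in all. The groups did not overlap for 3 genes lower and 2 higher, as was so for 30.7% and 33.3% of all genes tested. Slc7a3 was lowest by far, at 0.818 to 1.01 CPM against 15.8 to 42.9 CPM (24.9-fold lower). No p-value is given for it, since its genotype-dependent torin1 response, known when the genes were chosen, uses these same DMSO libraries. The neutral exchanger genes Slc1a5 and Slc1a4 were 2.10-fold (adjusted p = 0.00013, edgeR) and 1.40-fold lower (adjusted p = 0.00328, edgeR). Slc1a5 was at 40.7 to 61.0 CPM in AMPK KO and 87.0 to 147 CPM in WT, without overlap, over all its transcripts. The estimate for its protein-coding transcript differed less and is given with the transcripts below. The sodium-coupled carrier genes went the other way, with Slc38a2 1.41-fold (adjusted p = 9.67e-08, edgeR) and Slc38a1 1.40-fold higher (adjusted p = 7.37e-07, edgeR), also without overlap.

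Slc3a2 was 1.26-fold higher in AMPK KO (adjusted p = 0.0231, edgeR), with 388 CPM in its lowest library against 394 CPM in the highest of WT, a call lost without WT DMSO replicate 1 (log2 fold change 0.21) or 3 (0.22) or AMPK KO DMSO replicate 3 (0.30) or 4 (0.31). Slc7a11 was at 28.8 to 46.2 CPM against 13.0 to 40.8 CPM, a log2 fold change of 0.71 with an interval from -0.03 to 1.44 (adjusted p = 0.0827, edgeR). It passed with passage as a block (0.85, adjusted p = 4.45e-09, edgeR), with replicate number as a block (0.79, adjusted p = 0.0449, edgeR) and without passage 12 (1.16, adjusted p = 6.83e-05, edgeR). The genotypes share no passage, so the passage block takes the spread between passages out of the error of this comparison. Replicate blocks share only a number. Neither block p-value measures the spread between cultures of the lines, and nothing is read from them. Slc7a6 differed by -0.15 (adjusted p = 0.00879, edgeR), under the fold change set for a call. Slc7a1 and Slc7a5 did not pass, with log2 fold changes of 0.07 and 0.24 and intervals from -0.19 to 0.33 and from -0.07 to 0.56. The 2 lines also differed in sex-linked RNA, which stands beside the X-linked Slc7a3. Xist was at 281 to 511 CPM in WT libraries and at no more than 3 counts in any AMPK KO library, whereas the Y-linked Ddx3y, Eif2s3y, Kdm5d and Uty had at most 1 count in WT and 1 to 23 counts in AMPK KO. Genotype, sex-linked RNA and passage cannot be told apart here.

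Transcript estimates, which the choice of genes did not use, are described for 5 members, picked after their values were seen. For Slc1a5, a transcript annotated with a retained intron (ENSMUST00000127401) held 36.0% to 41.0% of the gene's TPM in WT DMSO and 9.3% to 15.4% in AMPK KO DMSO. The protein-coding ENSMUST00000108496 held 30.9% to 35.1% and 46.2% to 55.0%. For Slc38a1, the protein-coding ENSMUST00000088454 held 44.8% to 50.4% in WT DMSO and 27.7% to 32.0% with torin1, and 45.5% to 48.4% and 36.0% to 38.6% in AMPK KO. The shorter protein-coding ENSMUST00000100262 of the same gene held 20.7% to 24.6% in WT DMSO and 30.9% to 33.3% with torin1. For Slc3a2, the retained-intron transcript ENSMUST00000206895 held 2.0% to 2.7% in WT DMSO and 6.4% to 10.0% with torin1, and 2.9% to 4.2% and 6.2% to 7.8% in AMPK KO. Retained-intron transcripts of Slc7a6 and Slc38a2 also held separate ranges. ENSMUST00000213020 of Slc7a6 held 4.25% to 6.17% in WT DMSO and 7.62% to 10.9% with torin1, and 4.42% to 5.96% and 7.15% to 9.59% in AMPK KO. ENSMUST00000229141 of Slc38a2 held 4.41% to 5.18% and 6.39% to 7.33% in WT, and 4.67% to 5.57% and 6.14% to 6.75% in AMPK KO. Other retained-intron transcripts had lower shares with torin1. ENSMUST00000127401 of Slc1a5 came to 26.3% to 32.1% in WT, and in AMPK KO to 9.6% to 11.5%, overlapping DMSO. ENSMUST00000229253 of Slc38a1 went from 0.79% to 1.27% in WT DMSO to 0.40% to 0.69%, and from 0.99% to 1.25% to 0.56% to 0.79% in AMPK KO. These shares are estimates from short reads over sequences that transcripts of a gene largely share, and no test was run on them. Leading transcripts of Slc7a5, Slc38a2 and Slc7a1 held 96.1%, 94.6% and 93.3% of the mean TPM of their gene.

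**Figure D5:**
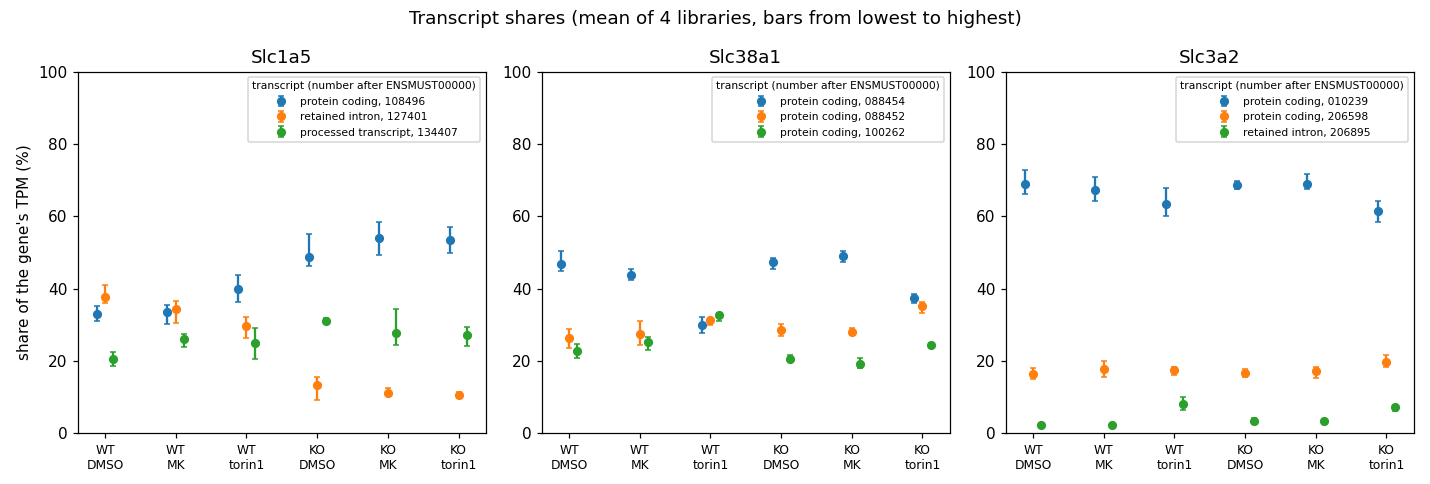
Share of the gene's TPM held by 3 transcripts each of Slc1a5, Slc38a1 and Slc3a2 in the 6 groups, as means of 4 libraries with bars from the lowest to the highest. The retained-intron transcript of Slc1a5 lies between 36.0% and 41.0% in WT DMSO and between 9.3% and 15.4% in AMPK KO DMSO.

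Among 44 other amino acid transporter genes, 43 were in the table and 24 passed the filter. With torin1, 8 of these 24 were called higher and 5 lower in WT, where 26.5% and 21.1% of all genes tested were, and 10 higher and 2 lower in AMPK KO, where 25.8% and 17.5% were. The other 2 cationic transporter genes tested, Slc7a2 and Slc7a4, were higher with torin1 in both lines. Slc7a2 was at 1.77 to 3.02 CPM in WT DMSO and 4.19 to 5.58 CPM with torin1. Ctns and Slc38a9 are named here after their values were seen. Ctns, which encodes the lysosomal cystine exporter cystinosin, had a log2 fold change of 1.27 (SE 0.13) with torin1 in WT and 1.13 (SE 0.13) in AMPK KO, where Slc7a11 was lower. Slc38a9, a lysosomal arginine sensor, stood at 0.80 (SE 0.09) and 0.47 (SE 0.09).

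With MK-8722, 5 of the 24 were called higher and 3 lower in WT (9.96% and 5.6% of all genes tested), and none higher and 1 lower in AMPK KO (0.809% and 0.651%), the exception being Slc38a4, a neutral amino acid carrier. Ctns, named after its values were seen, is given without p-values. It rose by 1.53 on the log2 scale in WT (SE 0.13) and was at -0.16 in AMPK KO. Its difference between genotypes was -1.70. That is opposite in sign to the differences of the 5 called members.

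Levels of ATF4 and of 9 genes it is known to drive, such as Asns and Trib3, were set beside the transporters. This list and that of NRF2 were chosen with earlier results of these data known, so nothing is read from their torin1 counts. With torin1 all 10 of that list were called lower in both genotypes, where 21.1% of all genes tested were in WT and 17.5% in AMPK KO, with median log2 fold changes of -1.91 in WT and -1.86 in AMPK KO. With MK-8722, 2 were called lower and 1 higher in WT (5.6% and 9.96% of all genes tested), and 2 higher in AMPK KO (0.809%), Atf4 itself (0.36, SE 0.09, adjusted p = 0.036, edgeR) and Chac1. The difference between genotypes was called for 4 of 10, all higher in AMPK KO (5.05% of all genes tested), with a median of 0.57 over the list beside 0.55 over the transporters. Of NRF2 and 6 genes it is known to drive, 6 of 7 were called lower with torin1 in WT and 5 in AMPK KO, beside the same 21.1% and 17.5% of all genes tested, with medians of -0.56 and -0.41. With MK-8722, 1 of these 7 was called lower and 1 higher in WT, beside the same 5.6% and 9.96%, and none in AMPK KO, where 1.46% of all genes tested were called either way.

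The genes whose log2 CPM followed each member most closely over the 24 libraries, among 10026 genes compared, are given as a description, 2 for each. For Slc7a11 they were Yars (r = 0.995), a tyrosyl-tRNA synthetase gene, and Psph (r = 0.989), of serine synthesis. Slc7a5 was followed by Yars (r = 0.995) and Psat1 (r = 0.994), and Slc3a2 by Phgdh (r = 0.991) and Yars (r = 0.990), where Psat1 and Phgdh also encode enzymes of serine synthesis. Slc7a1 went with Aldh18a1 (r = 0.993), of proline synthesis, and Trib3 (r = 0.992), Slc1a4 with Herpud1 (r = 0.989) and H2az1 (r = 0.983), and Slc38a1 with Cebpg (r = 0.989) and Abcf2 (r = 0.985). The remaining members were nearest to Exosc3 and Pgs1 (Slc38a2, r = 0.985 and 0.984), Ywhag and Senp3 (Slc7a6, r = 0.981 and 0.978), Fyn and Arl15 (Slc1a5, r = 0.965 and 0.947), and Mpdz and Sel1l (Slc7a3, r = 0.963 and 0.962). Among the members, Slc7a5 and Slc7a11 were closest (r = 0.991), then Slc7a5 and its partner chain gene Slc3a2 (r = 0.990), and Slc7a3 and Slc38a1 had the lowest r, -0.22. These libraries share 6 groups and their drugs, so r describes mostly the pattern of group means.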

How the data were processed

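Poly(A) RNA of 24 MEF libraries was sequenced as paired ends. The authors aligned reads with STAR and quantified them with Salmon on GRCm38, per the labels. They deposited estimated counts per gene, unnormalized, and TPM per transcript, which are scaled to length and depth within a library. Estimated counts were rounded to whole numbers, and 14.7% of the deposited values were not whole. CPM used TMM factors, except those of Prkaa1 and Prkaa2, which used library totals. All differences came from a model of 6 group means in edgeR 4.0.16 (R 4.3.3) with filterByExpr, robust quasi-likelihood dispersion and Benjamini-Hochberg adjustment over 15828 genes. Calls needed an adjusted p below 0.05 and a fold difference of 1.2 or more, the limits the study used. SE and 95% intervals were derived from the quasi-likelihood F statistic. DESeq2 1.42.0 was an alternative. Log2 CPM used a prior count of 2.

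The members and gene lists were chosen with earlier results of these data known. Named genes were the 10 members and, for each, the 2 other genes of at least 5 CPM on average with the highest r, gene models and pseudogenes passed over; of the lists, only genes a result turned on. Libraries of a group differed by more than counting noise, with chi-square per degree of freedom of 3.37 to 24.9 over 36 pairs. On data simulated for torin1 against DMSO in WT (15349 genes), the fit recovered 92.5% of 200 changed genes, with 9 false calls. Planted changes were larger than most MK-8722 differences here, and every gene was given the same dispersion. The share recovered therefore does not apply to small differences or to genes of wide spread. Passage numbers come from the labels, and same-passage libraries had correlated deviations over 0.1 in 15 of 24 pairs (r from -0.01 to 0.37). Protein sequences were not used here.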

Additional observations from a re-analysis of the deposited data

Results flagged for a closer look

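Of 60 groups of 4 libraries examined (10 genes in 6 groups), 4 held a library whose gap to its nearest neighbour exceeded Dixon's 95% critical value for 4 samples, a limit that chance passes in about 1 of 20 groups. WT DMSO replicate 4, of passage 12, accounted for 3 of them, with Slc7a1 at 328 CPM (others 264 to 272 CPM), Slc7a3 at 42.9 CPM (others 15.8 to 18.7 CPM) and Slc1a4 at 127 CPM (others 113 to 114 CPM). The fourth was Slc38a1 at 246 CPM in AMPK KO torin1 replicate 2 (others 227 to 229 CPM). The part of passage in these levels was not tested.

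The response to MK-8722 differed between genotypes by the interaction term for Slc7a5 (0.73 on the log2 scale), Slc1a4 (0.67), Slc7a1 (0.58), Slc3a2 (0.53) and Slc38a1 (0.37), each more positive in AMPK KO. The response to torin1 differed for Slc7a3 by 3.74, a difference known when the genes were chosen. Slc7a3 was at no more than 1.53 CPM in any AMPK KO library.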

How the results depend on the processing

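The torin1 comparisons kept their calls under nearly every alternative, with 10 members in WT and 9 in AMPK KO with each library left out, and 9 and 8 where Slc7a11 failed a filter of 10 counts in every library. At a fold change of at least 1.5 the call of Slc7a6 in AMPK KO was lost (log2 fold change -0.45). The MK-8722 comparisons did not, and the causes were not tested. Members called in WT with MK-8722, 2 in the report, came to 0 with no filter on low counts, 0 with the compared libraries alone, 0 at a fold change of at least 1.5, 5 without WT passage 12 and 0 to 5 with single libraries left out. In AMPK KO, 1 in the report, they came to 2 with DESeq2, 3 with the compared libraries alone, 5 with passage as the replicate block, 6 without WT passage 12, 0 at a fold change of 1.5 and 0 to 1 with single libraries left out. For the difference between genotypes with MK-8722, 5 in the report, they came to 2 with no filter, with the compared libraries alone and at a fold change of 1.5, to 7 with passage as the replicate block and without WT passage 12, and to 2 to 7 with single libraries left out. For AMPK KO against WT, 6 in the report, they came to 2 at a fold change of 1.5, 7 with passage as the replicate block, 8 without WT passage 12 and 5 to 7 with single libraries left out. In this comparison the passage block takes the spread between passages out of the error, so nothing is read from its count. A block by replicate number left the MK-8722 calls at 2 in WT and 1 in AMPK KO, and those for AMPK KO against WT at 7; deviations of libraries with the same replicate number had r from -0.20 to 0.25, with 4 of 24 over 0.1, so the samples share only a number.

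Signs changed for small values. With WT passage 12 left out, the torin1 difference between genotypes was -0.0067 for Slc7a5, 0.0166 for Slc38a2 and -0.0529 for Slc3a2, and with transcript length offsets 0.0016 for Slc38a2. With single libraries left out, ranges crossing 0 were -0.65 to 0.29 for Slc7a3, -0.40 to 0.0774 for Slc1a5 and -0.14 to 0.0044 for Slc38a1 (MK-8722 in WT), -0.17 to 0.13 for Slc7a3 and -0.039 to 0.0131 for Slc38a2 (MK-8722 in AMPK KO), -0.0038 to 0.14 for Slc7a1 (AMPK KO against WT), -0.30 to 0.64 for Slc7a3 (MK-8722 difference), and -0.20 to 0.0622 for Slc1a4, -0.13 to 0.0443 for Slc38a2 and -0.0236 to 0.15 for Slc3a2 (torin1 difference). Scaling by library size alone gave other medians of the log2 fold change over all genes tested. For torin1 they were 0.136 in WT (0.0363 in the report) and 0.117 in AMPK KO (0.0554 in the report). Between the lines without drug the median was 0.155 (0.0155 in the report). The order of groups by CPM matched that by TPM for 7 of 10 genes, not for Slc7a6, Slc1a4 and Slc38a1. Of the 20 most alike genes, 2 remained with 6 group means. Counts of 4 to 13 limit Slc7a11 with torin1 in WT.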
